A study of Mus musculus with 4 samples.

Results

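The arms of the miR-129 hairpin, mmu-miR-129-3p and mmu-miR-129-5p, were measured in mouse embryonic fibroblasts (MEFs) that were wild type (wt) or lacked Junb (Junb-/-). They are 2 of the 710 mouse miRNAs on a single-colour Febit array, with 8 spots each. The array carries no star name of miR-129. miR-129-3p was selected on its limma result in these same 4 arrays, and miR-129-5p was taken with it as the other arm. All genotype differences below are therefore descriptions, given without a p-value. The study used 2 wt and 2 Junb-/- clones with 1 array each, in order to find miRNAs that depend on JUNB, a subunit of the transcription factor AP-1. The MEFs had been isolated at embryonic day 9.5 from embryos of a mixed C57BL/6 and 129/Sv background. All 4 clones had been immortalized by the 3T3 protocol and were grown in the same medium, with no other treatment stated. The paper describes the clones as independent pairs of wt and Junb-/- MEFs, and the main fit here treats them as unpaired. The sources used here do not say whether clones of a genotype derive from different embryos, so the spread given below is that between clones and arrays. Junb mRNA itself is not measured by a miRNA array.

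A miRNA hairpin is cut by Drosha and Dicer into a duplex, and either arm can be loaded into an Argonaute protein, where the seed near its 5′ end directs it to target mRNAs. The arms of a hairpin arise from the same transcript in equal numbers, while their mature levels also depend on which arm is loaded and how long it lasts. miR-129 is best known as a miRNA of brain and retina, and its gene MIR129-2 is often silenced by DNA methylation in human tumours.

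In the mouse a pair of genes encodes miR-129. According to RefSeq (build GRCm38.p6), Mir129-1 lies on chromosome 6 at chr6:29022619-29022691, plus strand, and overlaps no other gene of the table. Mir129-2 lies on chromosome 2 at chr2:94241364-94241453, minus strand, where it overlaps the long noncoding RNA gene Mir670hg and Mir129b, a hairpin annotated on the opposite strand. Whether Mir129-2 falls in an exon or an intron of Mir670hg is not given in that table. The hairpins are shown with the 5p arm first and the 3p arm second in capitals, because they show that the 5p arm is the same from either gene while the 3p arms differ.
Mir129-1: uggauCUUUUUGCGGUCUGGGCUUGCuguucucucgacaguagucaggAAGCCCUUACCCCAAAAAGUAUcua
Mir129-2: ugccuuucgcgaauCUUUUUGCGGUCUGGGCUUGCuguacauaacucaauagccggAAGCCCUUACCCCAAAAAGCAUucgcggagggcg

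The mature arms are shown with the seed (bases 2 to 8) in capitals, since the seeds set their possible targets apart.
miR-129-5p: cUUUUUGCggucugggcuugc
miR-129-2-3p: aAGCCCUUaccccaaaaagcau
3p stretch of Mir129-1: aAGCCCUUaccccaaaaaguau
The 5p arm has 21 bases and is identical in both hairpins. For the 3p arm, RefSeq lists a mature miRNA for Mir129-2 only, under the name miR-129-2-3p, and none under the name used on the array. The stretch at the same place of Mir129-1 shares 21 of its 22 bases. The difference is C20U, counted from 1 at the 5′ end of miR-129-2-3p with its base given first. Both 3p stretches have the seed AGCCCUU, and the 5p arm has the seed UUUUUGC. No other mature miRNA of the RefSeq table shares either seed. The array files hold no probe sequences, so a signal for miR-129-5p cannot be assigned to either gene, and whether the miR-129-3p probe also captures a 3p arm from Mir129-1 was not tested. Of the 710 array names, 198 were found in the RefSeq table by exact name. The longest stretch that any of these, apart from miR-129-5p itself, shared with an arm was 8 bases (miR-770-5p with the 5p arm) and the longest shared with the 3p arm was 7 bases (miR-671-5p). Their log2 fold changes were -0.26 and 0.13.

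The intensity of the spots is given as deposited, without background, flag or control values. The median over all spots of an array was 33.6 for wt clone 1, 105.6 for wt clone 2, 84.0 for Junb-/- clone 1 and 110.1 for Junb-/- clone 2, which made wt clone 1 the dimmest array. Between 319 and 513 of the 5680 spots per array had no value, but all 16 spots of the miR-129 arms had a value on every array. Fibroblast and mesenchymal miRNAs were the brightest of the cell type lists, with a median normalized log2 level of 11.16 over 12 miRNAs. Of these, 1 (miR-31) passed the limma threshold, an adjusted p under 0.05 over all 710 miRNAs, as lower and none as higher, beside 0.845% and 0.563% of all miRNAs. The medians of the neuronal, epithelial, blood, muscle and pluripotent lists lay between 6.46 and 6.76, and the single liver miRNA, miR-122, was at 6.49.

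miR-129-3p was bright in both wt clones and dim in both Junb-/- clones. In wt clone 1 its spots ranged from 194.4 to 1059 with a median of 740.0. In wt clone 2 they ranged from 286.0 to 976.0 with a median of 855. In Junb-/- clone 1 the median was 123.9 and in Junb-/- clone 2 it was 84.5. The mean of the clone medians was therefore 797 in wt and 104.2 in Junb-/- MEFs. No exact fold is given, as no background is known: the median in Junb-/- clone 2 was below that of its whole array (110.1), and 4 and 3 of the 8 spots in Junb-/- clones 1 and 2 were under 50. Although the wt clone 1 array was dimmer than both Junb-/- arrays by its overall median, its miR-129-3p spots were brighter.

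Each of the 8 miR-129-3p spots showed the difference. At every spot the intensity in both Junb-/- clones was below that in both wt clones. The spot at the end of the file order had intensities of 194.4 and 286.0 in the wt clones and exactly 0 in both Junb-/- clones. The spot with the smallest difference had 420.0 and 866.0 in the wt clones and 336.8 and 197.0 in the Junb-/- clones. As these are bulk RNA samples, fewer cells with the miRNA and less of it per cell cannot be told apart.

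Within Junb-/- clone 1 the miR-129-3p spots spread widely. Their intensities in file order were 4.80, 221.0, 26.9, 336.8, 9.60, 449.6, 491.2 and 0. In Junb-/- clone 2 they were 16.8, 103.0, 280.8, 197.0, 10.9, 77.0, 92.0 and 0. The standard deviation (SD) over the spots after normalization was 1.54 on the log2 scale in Junb-/- clone 1, larger than that of 94.6% of the 710 miRNAs on that array, against 0.47 and 0.67 in the wt clones and 0.84 in Junb-/- clone 2. The spots that stayed brightest in Junb-/- clone 1 (449.6 and 491.2) were not those that stayed brightest in clone 2 (280.8 and 197.0), while 3 spots were under 20 in both clones.

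miR-129-5p was dim in all 4 clones. Its median spot intensity was 23.4 in wt clone 1, 45.6 in wt clone 2, 33.7 in Junb-/- clone 1 and 17.1 in Junb-/- clone 2, so the genotypes overlapped on the raw scale. Of its 8 spots, 6 and 5 in the wt clones and 4 and 5 in the Junb-/- clones were under 50, the offset that was added before the log2 step. The brightest spot of each clone reached 221.0 and 318.0 in wt and 156.0 and 446.0 in Junb-/- MEFs. Both Junb-/- clones were below both wt clones at 3 of its 8 spots, again without a share over all spots to set beside it.

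**Figure D1:**
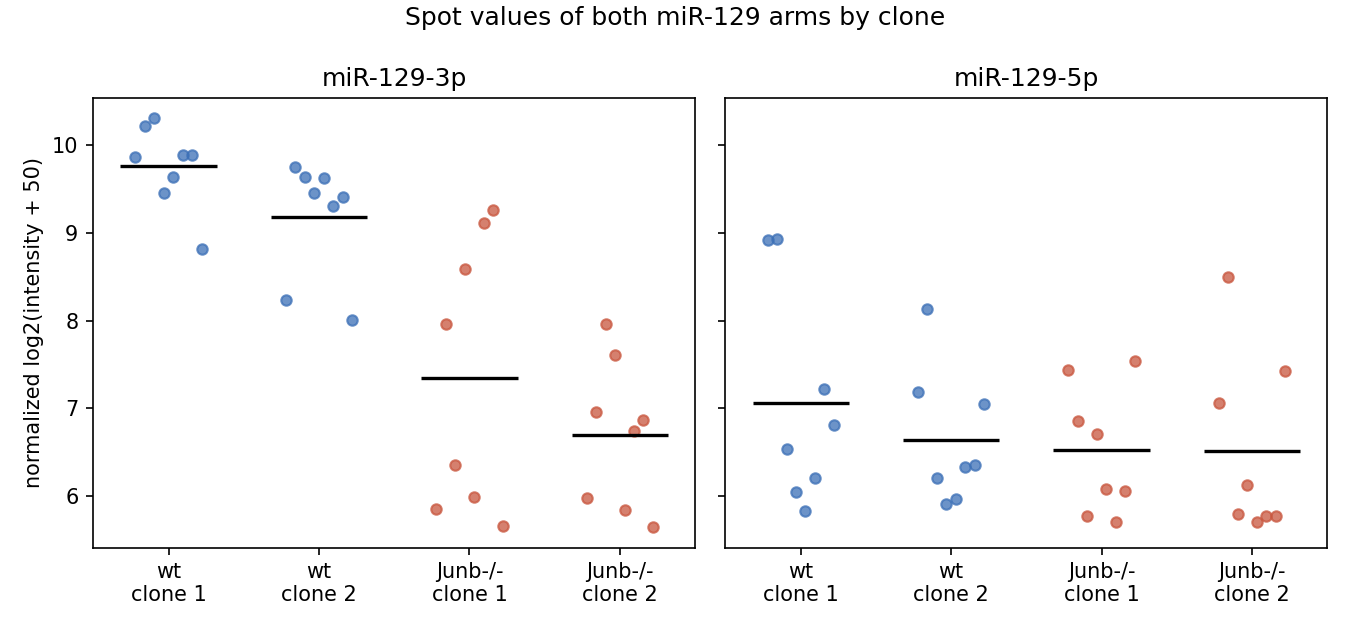
Normalized log2(intensity + 50) of each of the 8 spots of miR-129-3p (left) and miR-129-5p (right) in 2 wt (blue) and 2 Junb-/- (red) clones, in file order from left to right within a clone, with the mean over spots as a black line. The means of miR-129-3p are 9.76 and 9.18 for the wt clones but 7.35 and 6.70 for the Junb-/- clones, whereas all 4 means of miR-129-5p lie between 6.52 and 7.06.

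After an offset of 50, log2 transformation, quantile normalization over the 4 arrays and averaging over spots, the level of miR-129-3p was 9.76 in wt clone 1, 9.18 in wt clone 2, 7.35 in Junb-/- clone 1 and 6.70 in Junb-/- clone 2. The groups did not overlap, and the lower wt clone was above the higher Junb-/- clone. The mean was 9.47 ± 0.41 (SD, n = 2 clones) in wt and that of Junb-/- MEFs was 7.02 ± 0.46 (SD, n = 2 clones), which gave a log2 fold change of -2.45 with a standard error of 0.38 from limma on the log2(intensity + 50) scale, which understates differences of dim miRNAs. Of the 710 log2 fold changes, only those of miR-31 (-2.69) and miR-379 (-2.45, lower in the next decimal) were lower. At single spots the normalized difference between the genotype means ran from -3.72 to -1.36.

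For miR-129-5p the level was 7.06 and 6.64 in wt clones 1 and 2 and 6.52 in each Junb-/- clone. Both Junb-/- clones thus lay below both wt clones, by a margin smaller than the distance between the wt clones. The means were 6.85 ± 0.30 (SD, n = 2 clones) in wt and 6.52 in Junb-/- MEFs, and the log2 fold change was -0.33 with a standard error of 0.35. Single spots differed by -0.87 to 0.55 after normalization, and 6 of the 8 differences were negative.

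Over all 710 miRNAs, both Junb-/- clones were below both wt clones for 17.3% of them, and both arms of miR-129 are among these. The limma threshold was passed in the lower direction by 0.845% of the miRNAs, which included miR-129-3p but not miR-129-5p. The 2 miRNAs on either side of that threshold were miR-127 with a log2 fold change of -2.20 just inside and miR-18a with -1.66 just outside. Nothing about the arms is read from these counts, as miR-129-3p was chosen for this contrast.

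The arms were then compared within each clone. The brightness of 2 probes is not a measure of relative amounts, since probes differ in how well they capture their miRNA. The distance between the same 2 probes was therefore set side by side across clones. A constant factor in capture cancels there only on a log scale without an offset, remaining background or quantile normalization. It cancels in part where any of these is present, as in the values below. miR-129-3p exceeded miR-129-5p by 2.70 on the log2 scale in wt clone 1 and by 2.54 in wt clone 2. In Junb-/- clones 1 and 2 the distance was 0.83 and 0.18. Thus on this scale, compressed by the offset, the 3p signal lay nearer to the 5p signal in the Junb-/- than in the wt clones. The mean distance was 2.62 ± 0.11 (SD, n = 2) in wt and 0.50 ± 0.46 (SD, n = 2) in Junb-/- MEFs, and the distance shrank by 2.11 between the genotypes, with no overlap of the clones.

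The change in the distance between the arms was larger without the offset. In that setting an intensity of 0 was replaced by the smallest value above 0 on its array. For the miR-129 arms this applied to 1 miR-129-3p spot in each Junb-/- clone and to no spot in the wt clones. The distance was 3.89 and 3.82 for wt, against 1.11 and 0.77 for Junb-/- MEFs, and the mean distance changed by -2.91. In the values normalized by the authors it was 4.44 and 3.82 in the wt and 1.43 and 1.43 in the Junb-/- clones, a change of -2.70. On the raw scale the ratio of the median spot intensities, 3p over 5p, was 31.6 and 18.7 in wt and 3.68 and 4.94 in Junb-/- clones, without any background taken off. The genotypes were separate on all of these scales. The scale with the offset limits how far miR-129-5p could fall. A miR-129-3p spot with an intensity of 0 stood at 5.66 and 5.64 in Junb-/- clones 1 and 2. From its wt mean of 6.85, even a complete loss of miR-129-5p would be smaller than the log2 fold change of -2.45 for miR-129-3p. Some shrinkage of the distance was therefore fixed on that scale. The Junb-/- mean of miR-129-5p, 6.52, was above that lowest level. As most 5p spots were under the offset and no negative control is given, how large a fall in its amount the array could have shown was not tested.

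**Figure D2:**
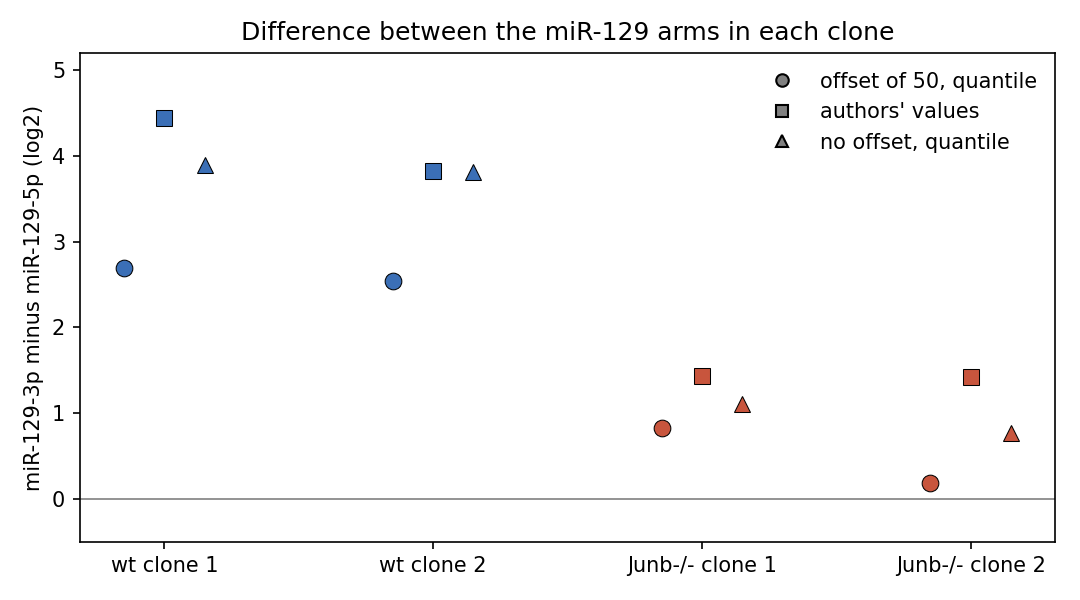
Difference between miR-129-3p and miR-129-5p (log2, vertical axis) in each of 2 wt (blue) and 2 Junb-/- (red) clones, from quantile-normalized values with an offset of 50 (circles), the authors' values (squares) and quantile-normalized values without an offset (triangles). The distance is 2.54 or more in both wt clones and 1.43 or less in both Junb-/- clones in all 3 sets of values.

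By the position of each probe within its own array, both arms ranked higher in both wt clones than in both Junb-/- clones. miR-129-3p was number 70 and number 120 from the top of the 710 miRNAs in wt clones 1 and 2, and number 265 and number 440 in Junb-/- clones 1 and 2. miR-129-5p was number 320 and 424 in the wt clones, against number 566 and 519 for Junb-/-, so the Junb-/- clones stood in the opposite order to that of miR-129-3p. These are ranks of brightness and not of abundance.

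Other hairpins on the array show how far the signals of arms parted in this contrast, dim ones included. In all, 74 hairpins, miR-129 among them, have both a 5p and a 3p name. The median absolute difference between the log2 fold changes of their arms was 0.40 and the upper quartile was 0.61. For miR-129 it was 2.11. Only miR-335 was wider, by 3.02, with log2 fold changes of 3.26 for its 5p and 0.23 for its 3p arm. miR-654 followed with 1.27, with 0.61 for the 3p and -0.66 for the 5p arm. Hairpins at the middle of the order were miR-1933, miR-291a and miR-875, each with arms 0.40 apart. The dimmer arm of these had a mean level of 6.19, 6.45 and 6.18, and that of miR-335 and miR-129 was 6.54 and 6.69. As the scale understates differences of dim miRNAs, how far arms part where both are bright was not tested. In 42 of the 74 hairpins the log2 fold changes of both arms had the same sign, as they did for miR-129. With plain and star names counted as pairs as well, miR-129 was again the next widest after miR-335, among 181 hairpins. It was followed closely there by miR-127 (2.04), miR-18a (1.92), miR-92a (1.87) and miR-146b (1.76), so that miR-129 did not stand apart from the next hairpins. As an arm of miR-129 was chosen for a large difference, its place in this order is no test.

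**Figure D3:**
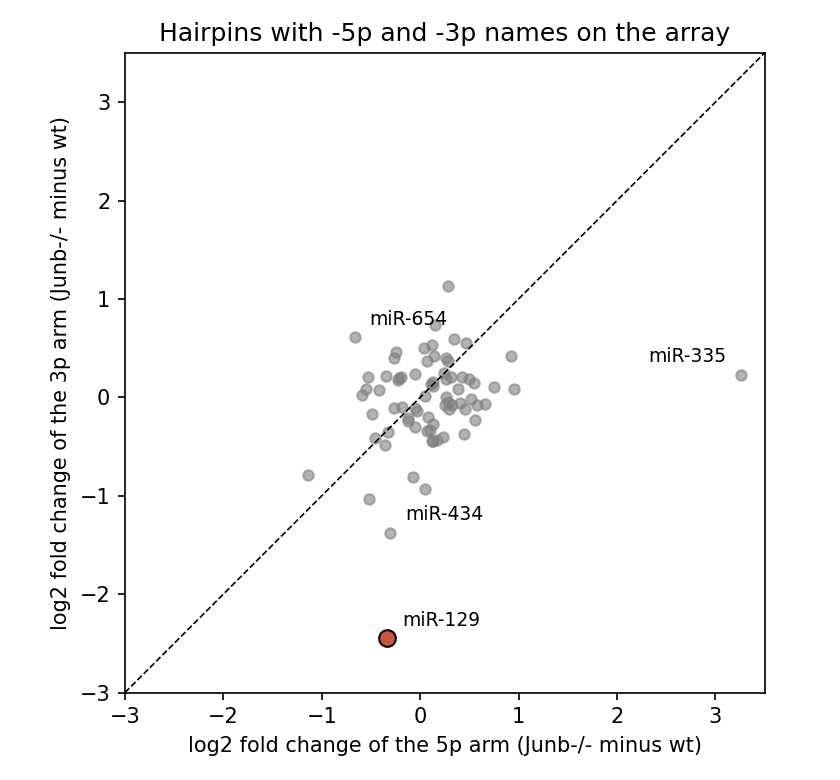
Log2 fold change (Junb-/- minus wt) of the 5p arm (horizontal axis) against that of the 3p arm (vertical axis) for the 74 hairpins with both names on the array, with equality as a dashed line. miR-129 (red) lies at -0.33 and -2.45, below the line and apart from the bulk of the hairpins (grey), and miR-335 lies at 3.26 and 0.23.

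The miRNAs whose profile over the 4 clones was nearest to that of miR-129-3p were miR-31, miR-182, miR-18a and miR-31*, with root mean square distances between the centred log2 profiles of 0.33, 0.35, 0.49 and 0.61. Their log2 fold changes were -2.69, -2.11, -1.66 and -2.44, and all but miR-18a passed the limma threshold. miR-182 had levels of 9.31 and 8.62 in the wt and 6.75 and 6.96 in the Junb-/- clones. Like miR-129-3p, miR-31 and miR-18a were higher in wt clone 1 than in wt clone 2, with 12.53 against 12.31 for miR-31 and 9.22 against 8.30 for miR-18a. Nearest to miR-129-5p were miR-485, miR-720, miR-369-5p and miR-1941-3p, at distances from 0.030 to 0.061 and with log2 fold changes from -0.40 to -0.25. miR-129-5p itself came only at place 109 in the order of likeness to miR-129-3p, with a distance of 1.08. These orders rest on 4 clones of 2 genotypes and are a description.

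Neighbouring miRNA genes were read for each Mir129 locus, in the order of the RefSeq table and up to 3 measured genes to each side. All other genes were passed over and no limit was set on the distance, so these neighbours need not be adjacent. The first measured miRNA genes after Mir129-1 on chromosome 6, towards higher coordinates, are Mir182, Mir96 and Mir183 of a common cluster. The nearest protein-coding gene on that side is Lep, and on the other side it is Lrrc4. miR-182 had a log2 fold change of -2.11, whereas it was 0.43 for miR-96, -0.37 for miR-183 and -0.68 for miR-183*. The standard errors of the last 3 were 0.36, 0.38 and 0.35. The levels of miR-183 lay between 6.10 and 6.99 and those of miR-183* between 5.93 and 6.68, so both were dim. From TaqMan assays the paper reports that the mature miRNAs and primary transcripts of this whole cluster depended on JUNB in MEFs. On the other side of Mir129-1, miR-592, miR-489 and miR-653 had log2 fold changes of 0.49, -0.52 and 0.37. Of these 7 miRNAs only miR-182 passed the limma threshold.

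Of the measured miRNA genes read in the same way on either side of Mir129-2 on chromosome 2, none passed. The next measured miRNA, miR-670, whose hairpin gives the host gene Mir670hg its name, had a log2 fold change of 0.25 with a standard error of 0.37. Beyond it, miR-1902 and miR-1951 were at -0.06 and 0.34. On the other side miR-1955, miR-130a and miR-684 were at -0.34, 0.20 and -0.20. All 6 differences were smaller than their standard error, and for miR-1955 alone both Junb-/- clones lay below both wt clones.

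Since miR-129 is known from neurons, 17 further miRNAs of neuronal cells were read as a list. None passed the limma threshold in the lower or in the higher direction, beside 0.845% and 0.563% of all miRNAs. Their median log2 fold change was 0.040, close to the median of 0.044 over all 710 miRNAs. The lowest were miR-134 (log2 fold change -0.74) and miR-124 (-0.68), the latter the miRNA most typical of neurons. miR-124 had levels of 6.93 and 8.17 in the wt and 6.35 and 7.40 in the Junb-/- clones, with overlapping genotypes. The highest were miR-218 (1.67), which is known from motor neurons and vessels, and miR-138 (0.49). The levels of the 17 miRNAs, averaged over the clones, lay between 6.30 and 8.51. The summed median intensity of the list was 577 and 2122 in the wt and 1303 and 2484 in the Junb-/- clones and thus did not separate the genotypes.

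The lower miR-129-3p signal was seen under every setting tried, whether or not it passed the limma threshold. Its log2 fold change ran from -4.15 without an offset to -2.12 without Junb-/- clone 2. That of miR-129-5p ran from -1.23 without an offset to -0.12 without normalization, where the median of all miRNAs was at 0.23, and it never passed the threshold. miR-129-3p did not pass in 7 of the 20 alternatives. These were no offset (log2 fold change -4.15), 75th percentile scaling (-2.73), median scaling (-2.86), no normalization (-2.36), the median over spots (-2.68) and the omission of wt clone 1 or of wt clone 2. The log2 fold change was -2.16 without wt clone 1 and -2.74 without wt clone 2, and in both fits no miRNA passed by limma, with 71 and 62 miRNAs at an unadjusted p under 0.05.

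**Figure D4:**
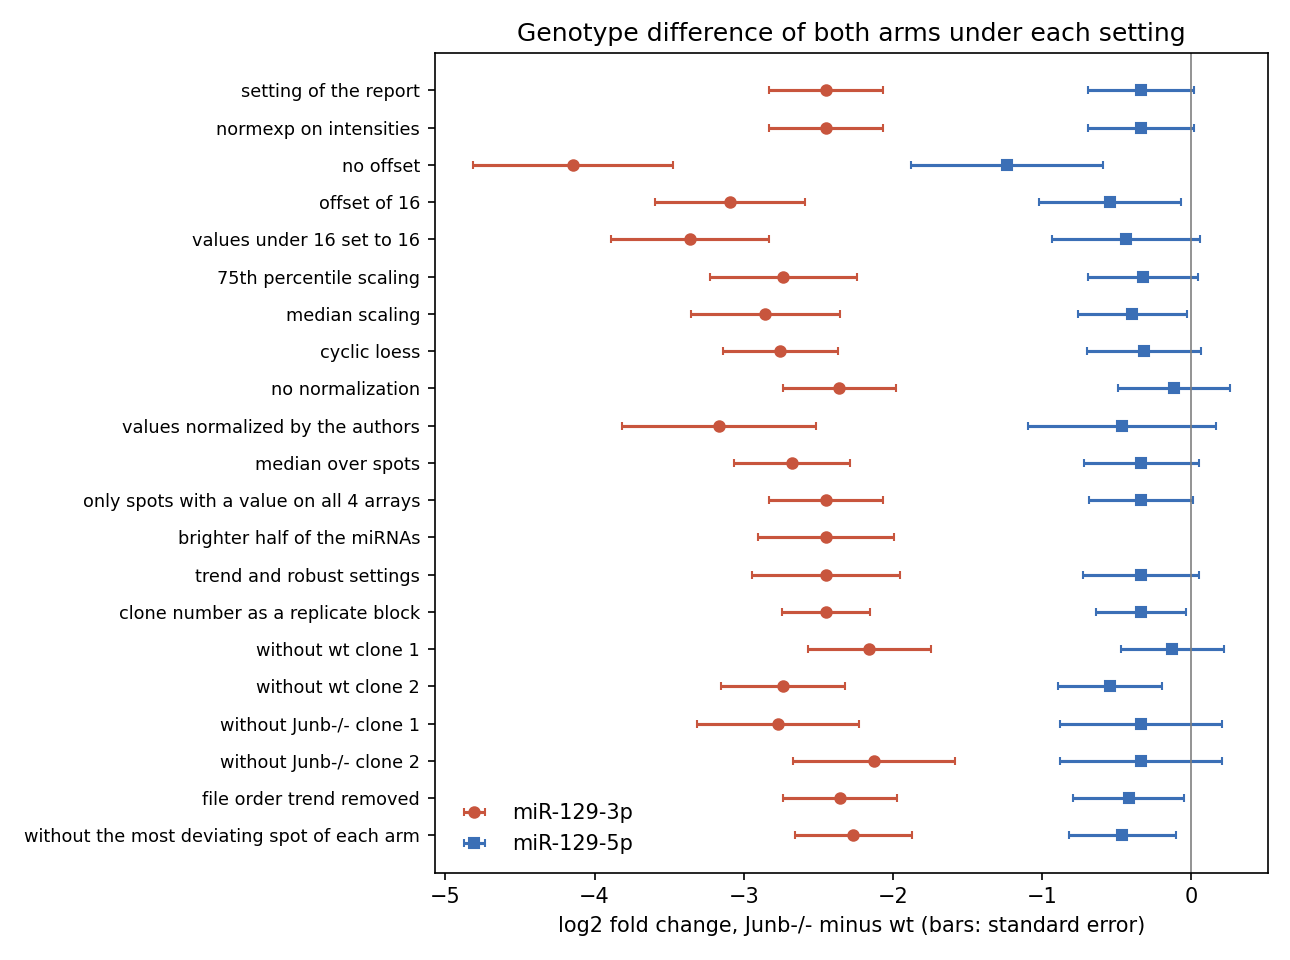
Log2 fold change (Junb-/- minus wt, horizontal axis) of miR-129-3p (red circles) and miR-129-5p (blue squares) under each way of processing the arrays (vertical axis), with standard errors from limma as bars. The points of miR-129-3p lie between -4.15 and -2.12 and those of miR-129-5p between -1.23 and -0.12, and within each setting miR-129-3p is the lower of the pair.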

How the data were processed

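RNA of 2 wt and 2 Junb-/- MEF clones was measured on 1 Febit primer extension array each. The authors deposited 1 linear intensity per spot (8 spots for each of 710 miRNAs). For image analysis and background, no method is given in the sources used here. As intensities were never negative and some were exactly 0, they were read as already corrected, and no further background was subtracted. The authors also deposited 1 normalized log2 value per miRNA and array, by a method not given in the sources used here. From the spots, log2(intensity + 50) was quantile-normalized over the 4 arrays, averaged per miRNA and fitted with limma 3.58.1 (R 4.3.3) for all miRNAs, with Benjamini-Hochberg adjustment and a threshold of 0.05. Limma estimated 11.8 prior degrees of freedom, with 2 residual. The limma fit was tested on simulated miRNA levels, and the averaging and the removal of a file-order trend on small made-up inputs. The offset, the quantile normalization and the comparison of the arms were not simulated.

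Named miRNAs are the arms themselves, up to 4 with the nearest centred profiles, the arms of other hairpins with the widest and the middle differences, the nearest measured miRNA genes, the 2 highest and 2 lowest neuronal miRNAs and those with the longest stretch in common. The members, lists and tests were chosen with earlier results of these arrays known. Sequences and gene order come from RefSeq tables of GRCm38.p6. As the array files name no build, coordinates are those of RefSeq. Tested alternatives were the offset, a floor, normexp, scaling, the authors' values, the summary over spots, dim miRNAs, limma settings, a block and each clone left out. Plots were drawn with matplotlib 3.10.9. Precision is limited by the number of arrays, and no detection call was possible.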

Additional observations from a re-analysis of the deposited data

How the results depend on the processing

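The log2 fold change of miR-129-3p was below 0 under all 20 alternatives and passed the limma threshold under 13. It did not pass without an offset (-4.15), with 75th percentile scaling (-2.73), with median scaling (-2.86), without normalization (-2.36) or with the median over spots (-2.68). The values were larger than in the report in 4 of these 5 settings, and the cause was not tested. Nor did miR-129-3p pass when wt clone 1 (-2.16) or wt clone 2 (-2.74) was omitted. Its log2 fold change lay between -2.77 and -2.12 when any single clone was omitted. The change in the distance between the arms was below 0 under all 19 alternatives that measured both, and it moved to -2.91 without an offset, -2.54 with an offset of 16, -2.93 with values under 16 set to 16, -2.46 with median scaling and -2.70 with the authors' values. miR-129-5p was below the median brightness and has no value once dimmer miRNAs are left out. By limma, 10 miRNAs passed in the report's setting. This count was 0 without an offset, with either scaling, without normalization and with the median over spots (53, 62, 61, 31 and 75 at an unadjusted p under 0.05), 4 with the floor of 16, 4 with the authors' values, 27 with cyclic loess, 17 with trend and robust settings and 0 to 11 with a clone left out. With the clone number as a replicate block it was 16, and the log2 fold change of miR-129-3p was -2.45 again; same-numbered clones deviated together at a correlation of 0.31, which 2 pairs do not settle. When a Junb-/- clone was omitted, limma set every miRNA to a common variance, and a lone clone is assumed to vary like the others. Removing a trend along the file order (-2.35) and the most deviating spot of each arm (-2.27 for miR-129-3p) were added after seeing the data. The files name no slide, so blocking on it was not run.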
